A study of Homo sapiens with 42 samples.

Results

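ID1, ID2, ID3 and ID4, together with SMAD6, SMAD7, SKIL and BAMBI, are genes that cells switch on when bone morphogenetic protein (BMP) or transforming growth factor beta (TGF-beta) signals, and they were followed here in 1205Lu cells, an established human melanoma line, exposed to inhibitors of the Aurora kinases. The genes were listed by name, and their probes were then chosen by measured signal: a probe was kept where it lay above background on at least 3 arrays of 1 group. Of the 12 probes annotated to the 8 genes, 7 passed, and they measured 6 of the 8 genes, among 8917 genes measured in all. ID4 and SMAD6 did not pass.

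AZD1152, an inhibitor selective for Aurora B, was given at 0.5 µM, and SNS-314, which inhibits all Aurora kinases, at 0.05 µM. RNA was collected after 6 h (3 samples per inhibitor) and after 12, 18, 24 and 48 h (4 samples per inhibitor at each time), and from 4 control samples at 0 h. The only controls were those at 0 h, so an effect of the inhibitor and of time in culture cannot be told apart, and all comparisons with 0 h share the same 4 control samples. The labels do not say whether replicates were separate cultures, so p-values measure only the spread between these samples.

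ID proteins are helix-loop-helix proteins without a DNA-binding basic region. They dimerise with E proteins such as TCF3, TCF4 and TCF12 and keep them from DNA, and they are known for holding back differentiation and for falling when cells leave the cell cycle. In many cell types ID1, ID2 and ID3 are direct targets of SMAD proteins activated by BMP receptors. The other genes act as feedback: SMAD6 and SMAD7 are inhibitory SMADs that block the receptors, SKIL (SnoN) is a co-repressor bound to SMADs, and BAMBI is a receptor-like protein without a kinase domain.

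Median signal per array before normalization was 210.0 to 338.6, and 20.5% to 30.4% of probes lay above background. At 0 h, 3 of 4 melanoma markers (S100A1, CSPG4 and MIA) were above background, but of 6 melanocyte lineage markers only SOX10 was, with MITF, PMEL, MLANA and TYR not above background on any control array. None of the leukocyte, endothelial or keratinocyte markers with a probe was above background, whereas PDGFRA and PDGFRB, but neither DCN nor LUM, were. AZD1152 18 h replicate 1, SNS-314 12 h replicate 4 and AZD1152 18 h replicate 4 were the 3 arrays least like their own groups, the lowest with a median correlation of 0.970 over the measured genes, where other arrays reached 0.993. Results that rest on them are given with and without them. The 42 arrays lay on 4 chips, and the controls lay on chips 2 and 3 only, with 2 on each.

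The RefSeq sequence before the transcription start is shown for the ID genes, because these 3 genes carried the changes described next and 2 of them moved in parallel. Each run holds the 250 bases before the start (GRCh38.p14, 5′ to 3′ on the gene's strand). ID1 lies on the plus strand at chr20:31605039-31605288, ID2 on the plus strand at chr2:8681806-8682055, and ID3 on the minus strand at chr1:23559502-23559751. Capitals mark a short SMAD-binding element (CAGAC, on either strand) in ID3 and an E-box (CANNTG) in ID2.
ID1: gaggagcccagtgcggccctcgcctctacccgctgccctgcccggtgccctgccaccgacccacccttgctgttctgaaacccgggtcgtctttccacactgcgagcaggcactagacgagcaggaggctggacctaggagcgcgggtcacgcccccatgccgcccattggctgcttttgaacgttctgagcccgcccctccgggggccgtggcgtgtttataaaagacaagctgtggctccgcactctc
ID2: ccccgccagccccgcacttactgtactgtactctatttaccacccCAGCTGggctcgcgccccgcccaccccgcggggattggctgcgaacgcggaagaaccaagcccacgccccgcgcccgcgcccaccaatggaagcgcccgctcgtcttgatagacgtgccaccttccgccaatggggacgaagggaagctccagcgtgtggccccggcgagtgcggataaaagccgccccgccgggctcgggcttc
ID3: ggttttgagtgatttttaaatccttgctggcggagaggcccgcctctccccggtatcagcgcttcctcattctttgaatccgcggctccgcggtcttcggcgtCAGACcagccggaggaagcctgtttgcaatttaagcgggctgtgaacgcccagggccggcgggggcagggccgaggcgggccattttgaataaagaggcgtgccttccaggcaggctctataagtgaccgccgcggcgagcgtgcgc
The stretch was rich in G and C in ID1 (66.0%), ID2 (69.2%) and ID3 (62.0%). CAGAC began 147 bases before the start of ID3, and the E-box 205 bases before that of ID2. Both motifs are common: over 35116 promoter windows running from 250 bases before to 50 bases after the start, 45.26% held CAGAC and 68.68% held CANNTG. In ID1, none of the 5 motifs searched on both strands was found, which says only that these letters are not in this window. The 3 other motifs were the palindromic SMAD site GTCTAGAC, the GC-rich BMP-type site GGCGCC and the cAMP response element TGACGTCA, held by 0.2%, 19.22% and 1.85% of windows.

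ID1 had the largest fitted change of the 6 measured genes at 48 h: it was called lower than at 0 h from 18 h with both inhibitors and by 48 h had reached the background of the arrays. On the normalized log2 intensity scale, the 4 controls read 10.46, 10.42, 10.33 and 10.78. With AZD1152, ID1 read 10.54, 10.62 and 10.39 at 6 h and 10.25, 10.34, 10.09 and 9.83 at 12 h. These values overlapped those of the controls. At 18 h it read 10.15, 9.60, 9.65 and 9.64, and at 24 h 9.68, 9.28, 9.14 and 9.28, all below the lowest control. At 48 h it read 8.17, 8.32, 8.18 and 8.17, and no array was above background. AZD1152 18 h replicate 1, one of the arrays least like its group, was the highest of its 4. Across all genes, 16.1% at 18 h, 23.4% at 24 h and 42.6% at 48 h had AZD1152 and control arrays that did not overlap.

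SNS-314 gave the same order over time. ID1 read 10.75, 10.81 and 10.50 at 6 h, 10.24, 10.16, 10.18 and 10.19 at 12 h, and 9.62, 9.38, 9.61 and 9.43 at 18 h. The 12 h values already lay below all controls, although the change was not called. The arrays of these groups did not overlap for 10.7% of all genes. At 24 h ID1 read 9.34, 9.37, 9.47 and 9.06, and at 48 h 8.30, 8.31, 8.40 and 8.07, with 2 of 4 arrays above background.

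Against 0 h, ID1 changed with AZD1152 by 0.02 at 6 h and -0.37 at 12 h, neither called (adjusted p = 0.978 and 0.0686), by -0.74 at 18 h (adjusted p = 1.71e-05) and by -1.16 at 24 h (adjusted p = 1.04e-09). At 48 h, with every AZD1152 array below background, the mean was 8.21 ± 0.07 with AZD1152 and 10.50 ± 0.19 at 0 h (SD, n = 4 each), a level at least 4.50-fold lower (limma adjusted p = 9.93e-19). The bound sets the control mean against the mean lowest signal above background on the AZD1152 arrays. The changes with SNS-314 were 0.19 at 6 h and -0.31 at 12 h, again not called (adjusted p = 0.594 and 0.129), -0.99 at 18 h (adjusted p = 8.75e-08) and -1.19 at 24 h (adjusted p = 6.07e-10). At 48 h the mean was 8.27 ± 0.14 with SNS-314 and 10.50 ± 0.19 at 0 h (SD, n = 4 each), a 4.69-fold lower level (log2 change -2.23, adjusted p = 1.13e-18). Of the 4 SNS-314 arrays, 2 were above background, and the fold is the fitted value.

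The 18 h call with AZD1152 did not rest on the divergent array: without replicate 1 the change was -0.87 (adjusted p = 1.08e-06). Within chips the fitted fall at 48 h of SNS-314 was -2.15 on chip 2 and -2.25 on chip 3. The SNS-314 array of chip 3 and the AZD1152 arrays of both chips were not above background. At 18 h the chips differed more, at -0.29 on chip 2 and -0.95 on chip 3 for AZD1152, each from 1 treated array and 2 controls. The 12 h change with AZD1152 was called when the replicate number was kept as a block (-0.37, adjusted p = 0.0329). A fold near background is understated on this scale. In bulk RNA, fewer cells that express a gene and less of its RNA per cell cannot be told apart.

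**Figure D1:**
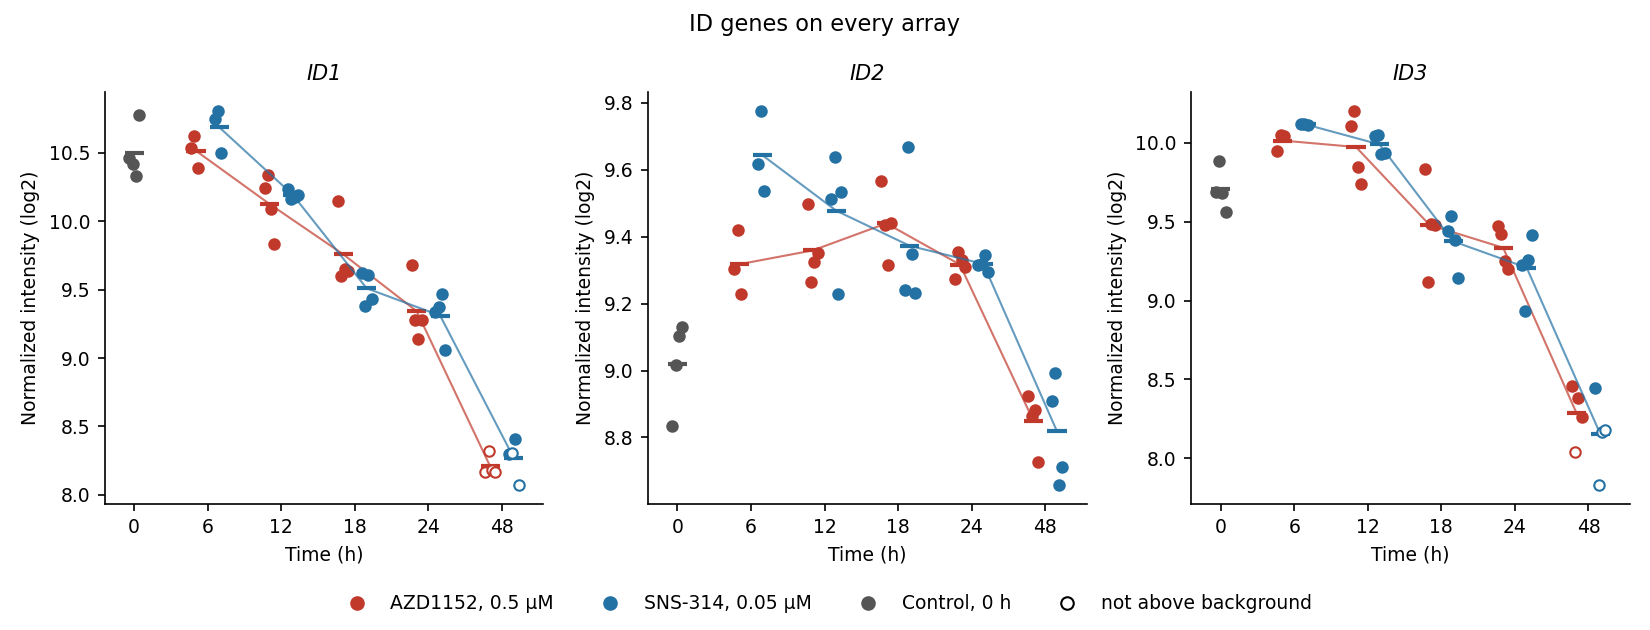
Normalized log2 intensity (vertical axis) of ID1, ID2 and ID3 on each array against time in hours, with AZD1152 in red left of SNS-314 in blue and the 0 h controls in grey. Open points are not above background and bars are group means. ID1 means lie at 8.21 with AZD1152 and 8.27 with SNS-314 at 48 h and at 10.50 at 0 h, and ID3 follows with a later descent.

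ID3, whose protein binds E proteins as well, was called lower from 24 h. Its 4 controls read 9.69, 9.89, 9.68 and 9.56. With AZD1152 it read 9.95, 10.05 and 10.04 at 6 h and 10.10, 10.20, 9.85 and 9.74 at 12 h. All 3 values at 6 h lay above the controls. At 18 h it read 9.84, 9.12, 9.49 and 9.48, at 24 h 9.47, 9.42, 9.25 and 9.20, and at 48 h 8.46, 8.04, 8.38 and 8.26. From 24 h all AZD1152 arrays lay below the controls, and at 48 h 3 of 4 were above background. Among all genes, 14.3% at 6 h, 23.4% at 24 h and 42.6% at 48 h had AZD1152 and control arrays that did not overlap.

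With SNS-314, ID3 read 10.12, 10.12 and 10.11 at 6 h, 10.04, 10.05, 9.93 and 9.93 at 12 h, and 9.44, 9.54, 9.38 and 9.14 at 18 h. At 24 h it read 9.22, 8.94, 9.26 and 9.42, and at 48 h 8.45, 7.83, 8.16 and 8.18, with 1 of 4 arrays above background. Here the arrays at 6 h and 12 h lay above all controls and those from 18 h below them. For all genes the shares without overlap were 14.6%, 10.7%, 17.7%, 23.8% and 43.8% from 6 to 48 h.

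The higher early values of ID3 were not called: its change at 6 h was 0.31 for AZD1152 (adjusted p = 0.325), and SNS-314 gave 0.41 (adjusted p = 0.0829). With the chip as a fixed block, the 6 h change with SNS-314 was 0.42 and was called (adjusted p = 0.0342). The fall was called at 24 h, at -0.37 for AZD1152 (adjusted p = 0.0328), and SNS-314 gave -0.50 (adjusted p = 0.00305). The AZD1152 call at 24 h was lost without any one of AZD1152 24 h replicates 3 and 4 and control replicates 1, 2 and 3 (adjusted p up to 0.121 without control replicate 2). It held in 12 of 21 alternatives and was also lost under 75th percentile scaling (adjusted p = 0.0805), against the controls of chip 2 (0.0558) or chip 3 (0.24) alone, and with no filter on dim probes (0.0815). At 48 h, ID3 averaged 8.28 ± 0.18 with AZD1152 and 9.71 ± 0.13 at 0 h (SD, n = 4 each), a fitted 2.68-fold lower level (adjusted p = 1.75e-12). Of these 4 AZD1152 arrays 3 were above background, and ID3 averaged below their mean lowest signal above background, 8.33. With SNS-314 at 48 h it averaged 8.16 ± 0.25, a fitted 2.93-fold lower level than at 0 h (adjusted p = 1.27e-13), with 1 of 4 arrays above background and the mean below the 8.30 that was the mean lowest signal above background on these arrays. The fitted fall with AZD1152 ranked 27 among 8917 genes. Within chips 2 and 3, AZD1152 gave fitted 48 h changes of -1.33 and -1.58, and SNS-314 gave -1.34 and -1.79. On chip 3 the 48 h array of neither inhibitor was above background.

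ID2, like ID3, read above the controls at 6 h, but it stayed above them to 24 h. Its 4 controls read 8.83, 9.02, 9.10 and 9.13. With AZD1152 it read 9.30, 9.42 and 9.23 at 6 h, 9.50, 9.26, 9.32 and 9.35 at 12 h, and 9.57, 9.44, 9.32 and 9.44 at 18 h. All of these lay above the highest control. The 4 arrays at 24 h, at 9.27, 9.35, 9.33 and 9.31, did as well, whereas at 48 h the values of 8.93, 8.86, 8.88 and 8.73 overlapped the controls. Groups did not overlap for 14.3%, 12.4%, 16.1% and 23.4% of all genes from 6 to 24 h of AZD1152.

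With SNS-314 the highest values came first. ID2 read 9.62, 9.78 and 9.54 at 6 h, 9.51, 9.64, 9.23 and 9.53 at 12 h, and 9.24, 9.67, 9.35 and 9.23 at 18 h. It read 9.32, 9.32, 9.34 and 9.30 at 24 h and 8.91, 8.99, 8.66 and 8.71 at 48 h. Arrays from 6 to 24 h lay above every control, and those at 48 h overlapped them. Groups did not overlap for 14.6%, 10.7%, 17.7% and 23.8% of all genes from 6 to 24 h of SNS-314.

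At 6 h of SNS-314, ID2 averaged 9.64 ± 0.12 (SD, n = 3), against 9.02 ± 0.13 at 0 h (SD, n = 4), a 1.54-fold rise (adjusted p = 5.16e-05) that ranked 55 among rises. The later SNS-314 changes were 0.46 at 12 h, 0.35 at 18 h and 0.30 at 24 h, each called (adjusted p = 0.00145, 0.0123 and 0.0217). With AZD1152 the 6 h change of 0.30 was not called (adjusted p = 0.136), and those of 0.34 at 12 h, 0.42 at 18 h and 0.30 at 24 h were (adjusted p = 0.0299, 0.00172 and 0.0257). With the chip as a fixed block the 6 h change with AZD1152 was 0.34 and was called (adjusted p = 0.0208). At 48 h ID2 did not pass the test, at -0.17 for AZD1152 (adjusted p = 0.146), and neither did the -0.20 of SNS-314 (adjusted p = 0.0783).

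Except for SNS-314 at 6 h, the ID2 calls depended on which controls they were set against. Against the 2 controls of chip 3 alone, none of the calls after 6 h held, and the 12 h change of AZD1152 was 0.24 (adjusted p = 0.325) and that of SNS-314 0.36 (adjusted p = 0.0704). Leaving out control replicate 1 ended the calls with AZD1152 at 12 and 24 h and with SNS-314 at 18 and 24 h (adjusted p = 0.0655 to 0.13). A second ID2 probe above background read, from 6 to 48 h, 0.31, 0.64, 0.41, 0.49 and -0.16 relative to 0 h under AZD1152, and 0.70, 0.52, 0.39, 0.54 and -0.08 under SNS-314. It kept every sign, although its 18 h change with SNS-314 was not called (adjusted p = 0.0524). Leaving out the 3 arrays least like their groups made the AZD1152 change at 18 h 0.35, which was not called (adjusted p = 0.0515).

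**Figure D2:**
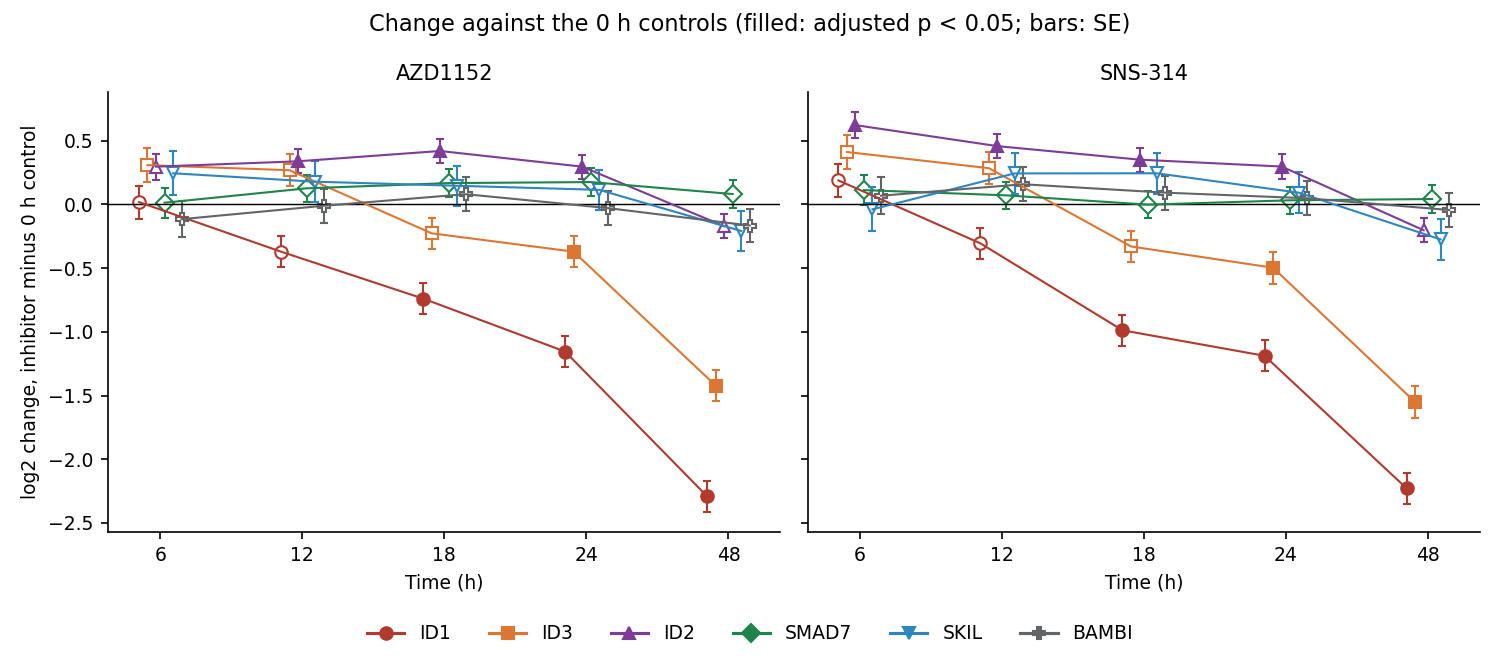
Log2 change against 0 h (vertical axis, with standard error bars) over hours of AZD1152 (left panel) and SNS-314 (right panel) for the 6 genes above background. Filled points passed an adjusted p of 0.05. ID3 descends by 48 h to -1.42 under AZD1152 and -1.55 under SNS-314, and ID1 to -2.23 under SNS-314. The 48 h point of ID1 under AZD1152 is a fitted value with no array above background, ID2 rises before it returns, and SMAD7, SKIL and BAMBI have no filled point.

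The feedback genes moved little. SMAD7, which recruits ubiquitin ligases to the TGF-beta receptor, averaged 8.60, 8.71, 8.76, 8.76 and 8.67 from 6 to 48 h of AZD1152 and 8.70, 8.66, 8.59, 8.62 and 8.63 from 6 to 48 h of SNS-314, against 8.59 ± 0.12 at 0 h (SD, n = 4). Single arrays ranged from 8.29 to 8.90. None of its 10 changes against 0 h was called (adjusted p = 0.285 to 0.994). SMAD7 was above background on 2 of 4 controls and on 2 of 3 arrays at 6 h of each inhibitor. Its control mean lay below 8.65, the mean lowest signal above background on the control arrays. The 0 h level to which all these changes refer was therefore near background.

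BAMBI was bright on every array, with single values from 13.91 to 14.70 and between 187 and 449 of the 47312 probes brighter than its own. It averaged 14.23, 14.33, 14.43, 14.32 and 14.18 from 6 to 48 h of AZD1152 and 14.41, 14.50, 14.44, 14.39 and 14.30 from 6 to 48 h of SNS-314, against 14.35 ± 0.10 at 0 h (SD, n = 4). None of the changes was called (adjusted p = 0.326 to 0.98), and the 95% intervals at 48 h were -0.43 to 0.10 with AZD1152 and -0.31 to 0.22 with SNS-314. BAMBI differed between chips: over the 6 arrays that each chip held from 12 to 24 h, it averaged 14.34, 14.51, 14.61 and 14.15 on chips 1 to 4. With the chip as a fixed block, it was called higher with AZD1152 at 18 h (0.24, adjusted p = 0.0259) and with SNS-314 at 12 h (0.32, adjusted p = 0.00875) and 18 h (0.26, adjusted p = 0.0308). Within chips 2 and 3 these changes were 0.15 and 0.30 for AZD1152 at 18 h and 0.29 and 0.35 for SNS-314 at 12 h.

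SKIL lay near background, with 19 of 42 arrays above it and values from 7.68 to 8.72. It averaged 8.46, 8.39, 8.36, 8.33 and 8.01 from 6 to 48 h of AZD1152 and 8.18, 8.46, 8.46, 8.31 and 7.94 from 6 to 48 h of SNS-314, against 8.21 ± 0.36 at 0 h (SD, n = 4). The controls were spread because replicate 3 read 7.68, below the other controls, which read 8.34 to 8.45. No change against 0 h was called (adjusted p = 0.155 to 0.97). Without that control, SKIL was called lower at 48 h with AZD1152 and with SNS-314 (adjusted p = 0.0472 and 0.0184). With SNS-314 it was also called under 75th percentile scaling (adjusted p = 0.0348) and against the controls of chip 2 alone (adjusted p = 0.0465). No array at 48 h was above background, so no size is given.

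ID4 and SMAD6 gave no level to compare. The ID4 probe was above background on 0 of 42 arrays and read at most 6.46. The SMAD6 probe was above background on 2 arrays, 1 control and 1 at 24 h of AZD1152, and on neither inhibitor's arrays at 48 h. SKIL was just inside the rule, with 3 groups that had at least 3 arrays above background. Just outside it was a second SMAD7 probe, which was above background on 11 arrays but never on 3 of 1 group. The second probes for ID1 and SKIL were above background on 0 arrays.

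**Figure D3:**
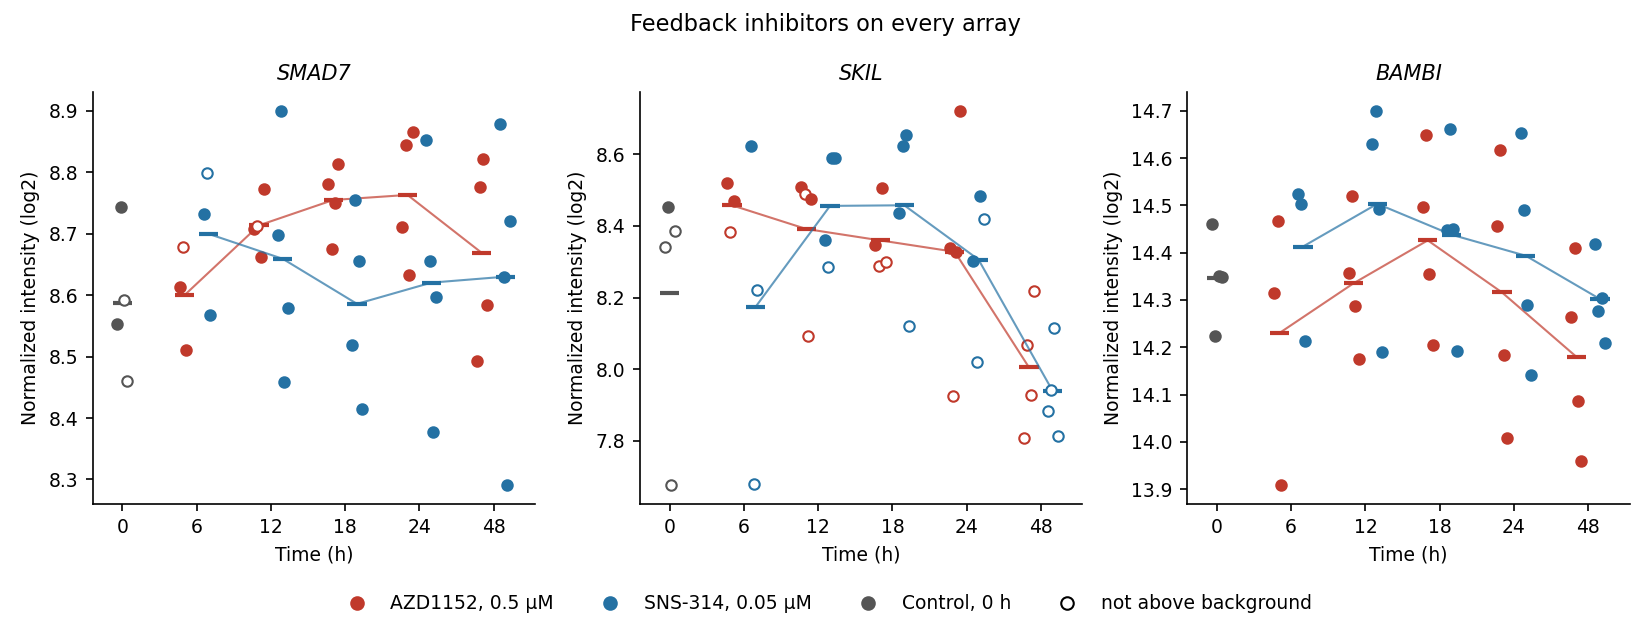
Normalized log2 intensity (vertical axis) of SMAD7, SKIL and BAMBI on each array against time in hours, with AZD1152 in red left of SNS-314 in blue and the 0 h controls in grey. Open points are not above background and bars are group means. SMAD7 stays between 8.29 and 8.90 and BAMBI between 13.91 and 14.70, and SKIL points at 48 h are all open.

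With AZD1152, 0 of the 6 measured genes were called at 6 h, when 2.69% of all genes were, and 1 was called at 12 h (4.27% of all genes), 2 at 18 h (17.7%), 3 at 24 h (16.8%) and 2 at 48 h (42.5%). With SNS-314 the count was 1 at 6 h (3.72% of all genes), 1 at 12 h (5.57%), 2 at 18 h (9.72%), 3 at 24 h (19.8%) and 2 at 48 h (45.3%). At 48 h, 2 of 6 is no larger a share than among all genes, so the count says nothing particular about these genes. The counts cover only the 6 genes that passed the filter. The median change of the 6 at 48 h was -0.19 with AZD1152 and -0.24 with SNS-314, where the median of all genes was near 0 (-0.002 with AZD1152 and -0.006 with SNS-314). Each median of the 6 lies between the fitted changes of SKIL and ID2, neither of them called. SKIL was not above background on any array at 48 h, so these medians do not show a shift of the group.

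Setting 48 h against 6 h of the same inhibitor uses no 0 h sample. With AZD1152, 4 of the 6 genes were called, all lower, when 20.8% of all genes were called lower and 42.1% in either direction. ID1 was at least 4.56-fold lower (adjusted p = 5.07e-18), and ID3 and ID2 changed by -1.73 and -0.47 (adjusted p = 7.07e-14 and 0.00027). SKIL was called lower (adjusted p = 0.0306), but it was above background on 2 of 3 arrays at 6 h and 0 of 4 at 48 h, so no size is given. The SKIL call with AZD1152 compares 8.52, 8.38 (below background) and 8.47 at 6 h with values below background at 48 h. It was lost without replicate 1 or 3 of either time (adjusted p = 0.0647 to 0.0929) and with no filter on dim probes (0.0683). With SNS-314, 3 of the 6 were called, all lower, when 23.2% of all genes were called lower and 46.2% in either direction. ID1 changed by -2.42, ID3 by -1.96 and ID2 by -0.82 (adjusted p = 1.21e-18, 1.61e-15 and 1.23e-08). The SNS-314 values for ID1 and ID3 are fitted, with 2 and 1 of 4 arrays above background at 48 h. The AZD1152 value for ID3 is fitted too, with 3 of 4 arrays above background at 48 h. On the 3 chips that held SNS-314 arrays of both times, ID1 changed by a fitted -2.26, -2.46 and -2.50. The 48 h array behind the -2.50, on chip 3, was not above background, nor was replicate 4 on chip 1. SKIL was not called with SNS-314 (adjusted p = 0.264), except without SNS-314 6 h replicate 2 (adjusted p = 0.0289).

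The steps between neighbouring times, averaged over both inhibitors, show when each gene moved. From 6 to 12 h ID1 alone of the 6 was called, with a step of -0.44 (adjusted p = 0.000678), when 9.99% of all genes were called. With the chip as a fixed block BAMBI was called too, at 0.18 (adjusted p = 0.0431). From 12 to 18 h ID1 and ID3 were called with steps of -0.52 and -0.55 (adjusted p = 4.68e-05 and 3.54e-05), when 9.64% of all genes were. From 18 to 24 h ID1 alone was called, at -0.31 (adjusted p = 0.0229, 4.97% of all genes), a call that was lost without AZD1152 18 h replicate 1 (-0.24, adjusted p = 0.0897) and without 3 other single arrays. From 24 to 48 h, 4 genes were called, all lower, when 42% of all genes were called in either direction. The fitted steps were -1.09 for ID1, -1.05 for ID3 and -0.48 for ID2 (adjusted p = 6.79e-14, 5.02e-13 and 1.47e-07), with ID1 above background on 2 and ID3 on 4 of the 8 arrays at 48 h. SKIL passed the test (adjusted p = 0.0116), but it was above background on 0 of 8 arrays at 48 h and 5 of 8 at 24 h, so no size is given. With the chip as a fixed block BAMBI was called as well, at -0.16 (adjusted p = 0.0241). For ID1 and ID3, the fitted step from 24 to 48 h, which spans more hours than the others, was the largest.

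**Figure D4:**
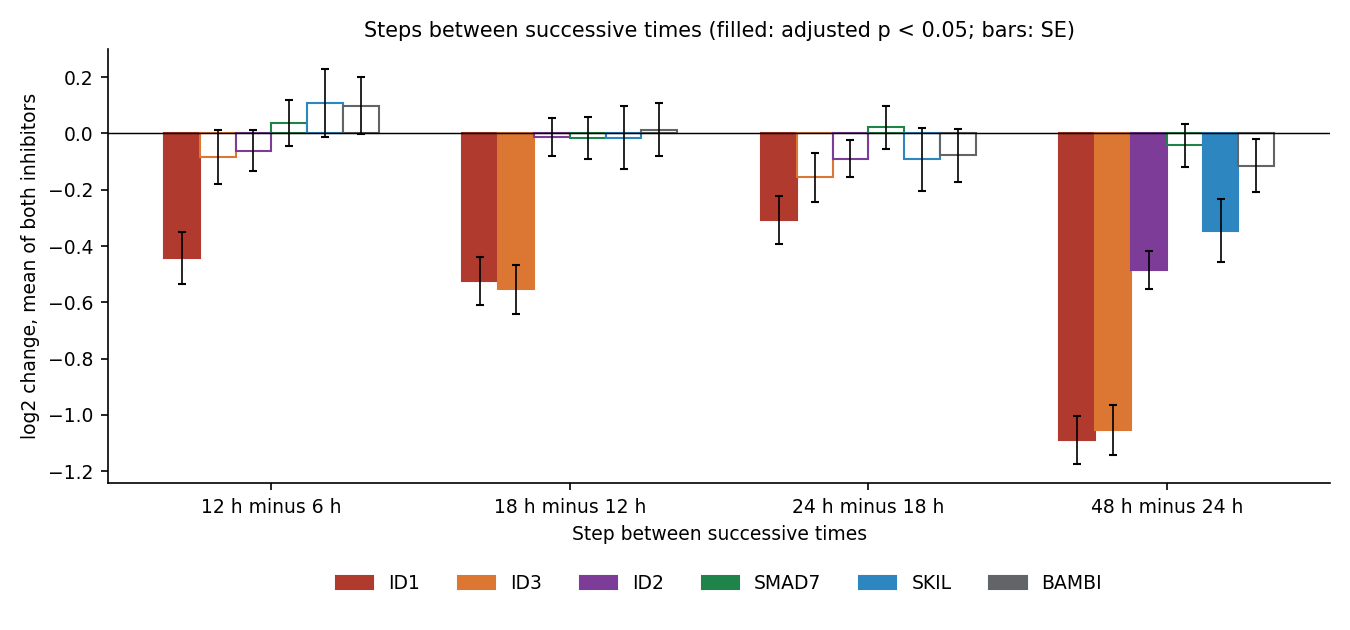
Log2 change between neighbouring times (vertical axis, mean of both inhibitors, bars with standard errors) for the 6 genes above background. The fall of ID1 begins with the step to 12 h (-0.44), that of ID3 with the step to 18 h (-0.55) and that of ID2 with the step to 48 h (-0.48).

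In the order of group means, ID1 was lowest at 48 h of both inhibitors, followed by 24 h, 18 h and 12 h, with 0 h and 6 h at the top. The arrays of neighbours in this order overlapped except between SNS-314 at 48 h and SNS-314 at 24 h, and between SNS-314 at 12 h and the controls. ID3 ran in the same order from 48 h to 18 h, but its highest groups were 6 h and 12 h, above the controls. Its neighbours were separate only between AZD1152 at 48 h and SNS-314 at 24 h and between both inhibitors at 6 h. For ID2, the lowest groups were those at 48 h, which overlapped the controls, and the highest was SNS-314 at 6 h, which overlapped SNS-314 at 12 h. A gap without overlap lay only between the controls and AZD1152 at 24 h. Among all genes, 10.7% had no overlap between SNS-314 at 12 h and the controls. The share was 8.8% between the inhibitors at 6 h and 23.4% between AZD1152 at 24 h and the controls. For the gaps of ID1 and ID3 between 48 h and 24 h groups, the share for those pairs was not computed. With the arrays of both inhibitors pooled, 14.2% of all genes had no overlap between 48 h and 24 h. Group means of SMAD7, BAMBI and SKIL gave no order in which neighbours differed beyond their spread.

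No difference between the inhibitors passed the test for these genes, at doses that differ between them. AZD1152 against SNS-314 gave 0 called among the 6 genes at any time, and the shares of all genes called were 0%, 0%, 0.0336%, 0% and 0% at 6, 12, 18, 24 and 48 h. The 18 h count over all genes was 3, and it was 78 without AZD1152 18 h replicate 3, 15 without replicate 2 and 7 without SNS-314 18 h replicate 4. At an unadjusted p under 0.05, limma gave 1, 0, 1, 0 and 0 of the 6 genes and 278, 577, 1054, 296 and 269 of all genes. ID2 at 6 h was the clearest of them: the groups did not overlap, and the difference was -0.32 (95% interval -0.55 to -0.10, adjusted p = 0.999), whereas 8.8% of all genes had groups that did not overlap there. Within the 3 chips, each with 1 array of each inhibitor, the difference was -0.31, -0.32 and -0.36. With the replicate number as a block it was not called (adjusted p = 0.985), nor with the chip as a fixed block (0.627). The difference of ID1 at 18 h was 0.25 (95% interval 0.01 to 0.49, adjusted p = 0.413). At 48 h the intervals of the difference were -0.30 to 0.18 for ID1, -0.16 to 0.22 for ID2 and -0.12 to 0.38 for ID3.

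Across the 42 arrays, ID1 and ID3 had a Pearson correlation of 0.936, and over the 11 group means it was 0.969. ID2 followed ID3 more closely (0.815 over group means) than ID1 (0.709). SMAD7 had almost no relation with ID1 (-0.03 over group means). These points share the time course and, within a group, their arrays, so the values describe the pattern only.

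The genes whose group means were most like those of ID1 were TEDC2, CDK2 and CENPB (Pearson r over 11 group means 0.995, 0.994 and 0.994), and the least like was FABP7 (-0.990). At 48 h TEDC2 changed by -1.42 with AZD1152 and -1.35 with SNS-314, and CDK2 by -1.46 with AZD1152 and -1.54 with SNS-314. For ID3 the most alike were ABHD3, MCUB and RTTN (0.990, 0.987 and 0.986) and the least alike SERPINA3 (-0.996). For ID2 they were ALG9, PSMD8 and RPL26L1 (0.960, 0.957 and 0.951), with DIS3 least alike (-0.963). SKIL had GALNT4, MDFIC and RBX1 (0.956, 0.954 and 0.945) and least PSAP (-0.957), and BAMBI had YWHAG, NUDT6 and PABPC1 (0.910, 0.903 and 0.902) and least RAB18 (-0.893). For SMAD7 no gene was as close, with SMG8, NR1H3 and PPP3CA-DT at 0.818, 0.801 and 0.796 and ASAP1-IT1 least alike (-0.831).

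Over all genes at 48 h, 20.7% were called higher and 21.8% lower with AZD1152, and 22.3% higher and 23% lower with SNS-314. The counts of the following lists stand beside those shares, and no list was tested as a whole. Among other genes of the pathway, the ligands had 2 of 6 measured called higher and 0 lower with each inhibitor. BMP7, a BMP ligand, averaged 10.36 with AZD1152 and 10.47 with SNS-314, against 9.84 at 0 h, a change of 0.51 with AZD1152 and 0.63 with SNS-314 (adjusted p = 0.00458 and 0.000587). Of 10 measured antagonists and latency proteins, 3 were called higher and 3 lower with AZD1152, and 4 higher and 3 lower with SNS-314. THBS1, an activator of latent TGF-beta, changed by -0.81 with AZD1152 and -0.80 with SNS-314 (adjusted p = 6.91e-06 and 8.61e-06). At 6 h THBS1 was called higher with AZD1152 (0.55, adjusted p = 0.0276) but not with SNS-314 (0.48, adjusted p = 0.061). NBL1, a secreted BMP antagonist, changed by -0.53 with AZD1152 and -0.64 with SNS-314 (adjusted p = 1.92e-05 and 6.68e-07).

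Of 8 measured receptors and co-receptors, 3 were called higher and 0 lower with AZD1152, and 3 higher and 1 lower with SNS-314. They included the BMP co-receptor RGMB (0.54 with AZD1152 and 0.39 with SNS-314) and the TGF-beta type II receptor TGFBR2 (0.46 and 0.47). At 24 h RGMB was called lower with SNS-314 (-0.35, adjusted p = 0.0244) but not with AZD1152 (-0.18, adjusted p = 0.292). Of 5 measured receptor-activated and common SMADs, 1 was called with each inhibitor, SMAD3, which carries TGF-beta signals, at -0.53 with AZD1152 and -0.57 with SNS-314. Of 12 other negative regulators 4 were called lower and 0 higher with each inhibitor, beside the 21.8% of all genes called lower with AZD1152 and 23% with SNS-314. Among them were NEDD4L, a ubiquitin ligase for activated SMADs (-0.88 with AZD1152 and -0.84 with SNS-314), and PMEPA1, a membrane protein that sequesters SMADs (-0.55 and -0.57).

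Other targets of BMP or TGF-beta divided, with 2 of 11 measured higher and 2 lower with AZD1152 and 4 higher and 3 lower with SNS-314. The 2 with the largest fitted changes at 48 h, ATOH8 and GATA2, were not above background on any array at 48 h, and no fold is given. Of 13 measured E proteins and other helix-loop-helix factors, 4 were called higher and 5 lower with AZD1152, and 4 higher and 2 lower with SNS-314. MXD1 and MXD4, which compete with MYC for MAX, rose by 1.15 and 1.21 under AZD1152 and by 1.11 and 1.15 under SNS-314. The rises of MXD1 are fitted from a 0 h mean of 8.35, with 2 of 4 controls above background. Of the E proteins that ID proteins bind, named here after their values were seen, TCF3 changed by -0.46 with AZD1152 and -0.42 with SNS-314 (adjusted p = 0.000128 and 0.000468). TCF4 (-0.22 and -0.15) and TCF12 (-0.08 and -0.09) were not called.

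The median change of these lists at 48 h ran from -0.08 (E proteins and other helix-loop-helix factors) to 0.15 (ligands) with AZD1152 and from -0.08 to 0.13 in the same lists with SNS-314. The median of all genes was -0.002 with AZD1152 and -0.006 with SNS-314.

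At 6 h most genes of these lists were not called. Other targets had 1 higher and 2 lower of 11 with AZD1152, and 2 higher and 2 lower with SNS-314. Ligands had 1 of 6 lower with each inhibitor. Antagonists and latency proteins had 2 of 10 higher with AZD1152 and 1 with SNS-314. Of 5 receptor-activated and common SMADs 1 was lower with AZD1152 only, and of 12 other negative regulators 1 with SNS-314 only. These counts stand beside 2.69% of all genes called at 6 h with AZD1152 and 3.72% with SNS-314. The activin and BMP antagonist FST changed by 0.71 with AZD1152 and 0.76 with SNS-314 (adjusted p = 0.00354 and 0.00124), and was higher at 48 h (0.55 with AZD1152 and 0.48 with SNS-314), but was not called at 12, 18 or 24 h, where its changes lay between -0.21 and 0.12. HEY1, a helix-loop-helix repressor, changed by -0.62 with AZD1152 and -0.59 with SNS-314 at 6 h (adjusted p = 0.000493 and 0.00095) but by 0.51 and 0.32 at 48 h, each called. TGFB3 was above background on none of the 6 h arrays and on 2 of 4 controls, and no fold is given. The actin-binding protein TAGLN, a TGF-beta target, changed by 1.21 with AZD1152 and 1.38 with SNS-314 at 6 h. None of the 8 receptors and none of the 13 genes in the list of E proteins and other helix-loop-helix factors was called at 6 h, when 2.69% of all genes were called with AZD1152 and 3.72% with SNS-314.

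**Figure D5:**
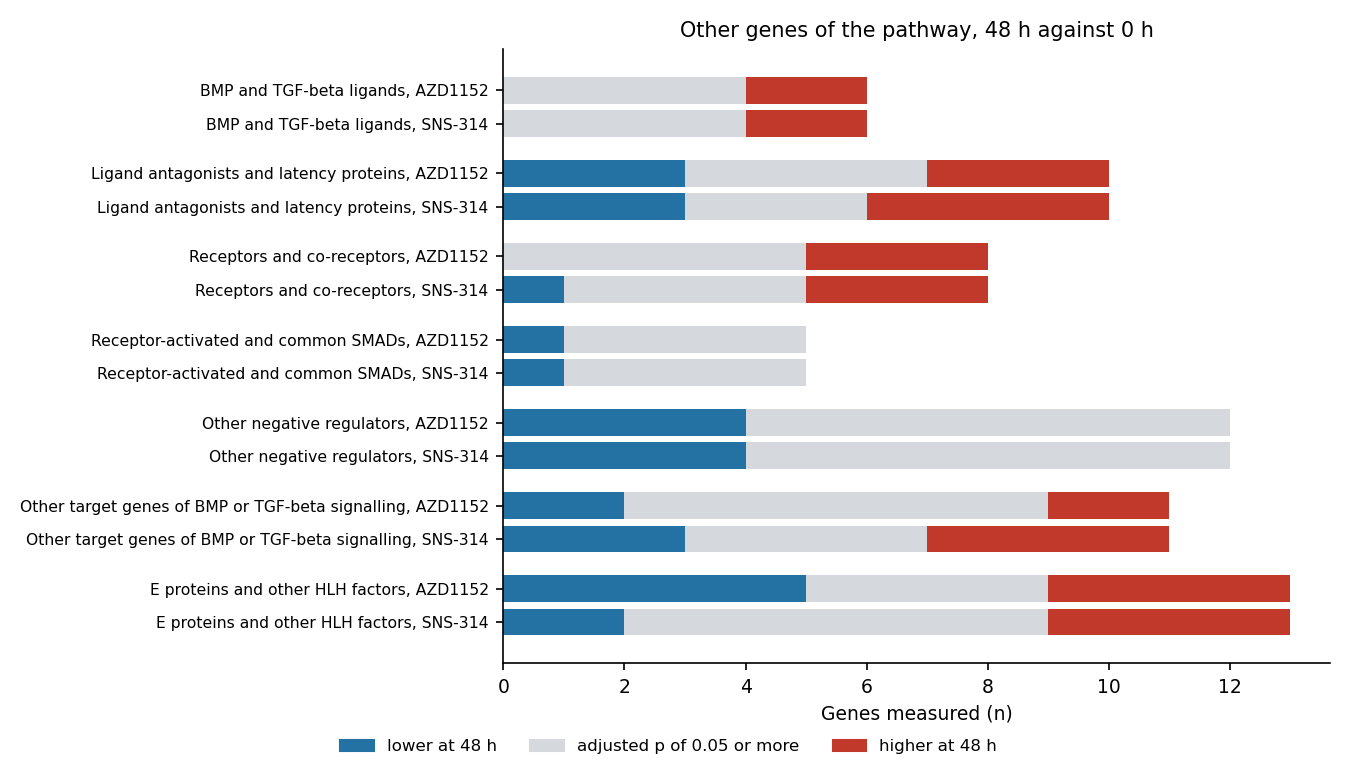
Number of measured genes (horizontal axis) called lower, not called and called higher at 48 h in 7 lists of pathway genes, for AZD1152 and SNS-314. The other negative regulators have 4 lower and 0 higher of 12 with each inhibitor, and the receptors 3 higher.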

How the data were processed

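RNA of 42 samples was hybridised to Illumina HT-12 arrays. The deposited table used here holds non-normalized probe intensity, per the file headers. A second deposited table, of log2 values that the authors quantile-normalized per the file headers, served as an alternative. Intensities were background-corrected (normexp, offset 50, without control probes), quantile-normalized and converted to log2 with limma 3.58.1 in R 4.3.3, and a model with 1 mean per group was fitted to all arrays. Adjusted p is Benjamini-Hochberg over 8917 genes within a comparison, called below 0.05. Background was the 95th percentile of each array's estimated background. Of 47312 probes, 30110 carried 1 gene symbol, 8 several and 17194 none, and 13481 passed the filter. A gene was read from its brightest passing probe. Fits were tested on simulated data.

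The members and lists were chosen with earlier results of these data known, with no test of a list as a whole. By rule the text names all members, up to 2 genes per list called in both inhibitors at 6 h and at 48 h, and for each member the 3 most and the 1 least similar gene. Promoters came from RefSeq (GRCh38.p14), where all 8 genes matched. Replicate numbers were checked for pairing by the correlation of residuals. Between inhibitors it was 0.15 to 0.28 at 6 h, 0.15 to 0.32 at 12 h and 0.28 to 0.42 at 24 h. At 18 h the values fell on both sides of 0 (-0.05 to 0.40), and at 48 h they were 0.07 to 0.29. Same-numbered arrays of the 2 inhibitors lay on the same chip, so pairing by replicate and by chip cannot be told apart. Inhibitor and control arrays (-0.17 to 0.39) did not pair.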

Additional observations from a re-analysis of the deposited data

Results flagged for a closer look

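Of 54 groups of 4 arrays tested for a single value far from the others, 4 stood out, and chance gives about 1 in 20. ID1 read 10.15 on AZD1152 18 h replicate 1, where the other replicates read 9.60 to 9.65. That array was also the least like its group over the measured genes. ID1 read 8.32 on AZD1152 48 h replicate 2, where the others read 8.17 to 8.18, all below background. SKIL read 8.09 on AZD1152 12 h replicate 3, below background, where the others read 8.47 to 8.51. SKIL read 7.68 on control replicate 3, also below background, where the other controls read 8.34 to 8.45.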

How the results depend on the processing

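ID1 was called lower at 18, 24 and 48 h with both inhibitors, and ID3 at 48 h, in 21 of 21 alternatives each. No called change reversed its sign. Over single genes, 46 changes lost their call and 23 gained one, while 2538 kept their sign and their side of the threshold and 114 that were not called changed sign. With no filter on dim probes, the counts of called members were 0 for AZD1152 12 h, 1 for AZD1152 24 h and 0 for 24 h against 18 h, when 20043 genes were tested. Keeping only probes above background on every array removed ID1, ID3, SMAD7 and SKIL. It gave 1 at 18 h, 1 at 24 h and 0 at 48 h of either inhibitor, 1 for 48 h against 6 h of either, and 0, 0, 0 and 1 for the steps. Fitting only the groups compared gave 2 for SNS-314 6 h and 0 for 24 h against 18 h. With the 75th percentile scaling, ID3 at 24 h of AZD1152 lost its call and SKIL at 48 h of SNS-314 gained one. The replicate block gave 2 for AZD1152 12 h (ID1 joined) and changed no other call of a member. Chip as a fixed block gave 1 for AZD1152 6 h, 2 for SNS-314 6 h, 2 for SNS-314 12 h and 2 for 12 h against 6 h, where BAMBI joined. Chip as a random block gave 1 for AZD1152 6 h and 2 for SNS-314 6 h. Against the controls of chip 3 only, the counts were 0 at 12 h, 1 at 18 h and 1 at 24 h for either inhibitor. Leaving out the 3 divergent arrays, chosen after seeing the data, gave 2 for AZD1152 12 h, 1 for AZD1152 18 h, 2 for SNS-314 6 h and 0 for 24 h against 18 h. The cause was not tested in these cases.

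Leaving out 1 replicate at a time gave 0 to 2 members for AZD1152 12 h, 1 to 3 for AZD1152 24 h, 1 to 2 for SNS-314 18 h and 0 to 1 for 24 h against 18 h. The ID2 call with AZD1152 was lost without AZD1152 12 h replicate 1, 3 or 4 or control replicate 2 at 12 h, and without AZD1152 24 h replicate 2 or 3 or control replicate 2 at 24 h. With SNS-314 it was lost without SNS-314 18 h replicate 2 and without SNS-314 24 h replicate 3. ID2 at 48 h of SNS-314 was called lower without SNS-314 48 h replicate 2 or control replicate 1 (-0.26 in both). It was also called lower there against the controls of chip 3 only (-0.30, adjusted p = 0.0381). ID1 at 12 h of AZD1152 was called without replicate 2 (-0.44).

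Counts over all genes moved by more than 1.5 times as follows. Against the controls of chip 2 only, 141, 150, 724 and 814 genes were called from 6 to 24 h of AZD1152 (reported values 240, 381, 1579 and 1494) and 177, 186, 315 and 928 from 6 to 24 h of SNS-314 (332, 497, 867 and 1764). Against chip 3 only, AZD1152 gave 209 at 12 h and 989 at 18 h. Without the filter, 12 h gave 222 with AZD1152 and 315 with SNS-314, and the steps to 18 and 24 h gave 501 (860) and 240 (443). Fitting only the groups compared gave 549 for AZD1152 18 h, 239 for SNS-314 12 h, 346 and 232 for those steps, and 0 (3) for the inhibitors at 18 h. The all-arrays filter gave 217 for SNS-314 6 h. Counts rose with the replicate block to 577 for AZD1152 12 h, 793 for SNS-314 12 h, 761 for the step to 24 h and 12 for the inhibitors at 18 h. The last 2 of these were 844 and 14 with chip as a fixed block and 760 and 13 as a random block. Without the 3 divergent arrays they were 253 and 1, and AZD1152 18 h gave 663. Leaving out 1 replicate at a time gave, at the extreme, 141 for AZD1152 6 h, 236 for AZD1152 12 h, 1003 for AZD1152 18 h (replicate 1), 218 for SNS-314 6 h, 293 for SNS-314 12 h, 293 to 719 for the step to 24 h and up to 78 for the inhibitors at 18 h. Dim probes near background limit SKIL, SMAD7 at 0 h and 6 h, and ID1 and ID3 at 48 h.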

Other observations

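Other genes of the pathway lists moved at 48 h, named here after their values were seen. HEY2, a helix-loop-helix repressor, averaged 12.20 with AZD1152 and 12.22 with SNS-314, against 11.46 at 0 h (log2 change 0.74 and 0.76, adjusted p = 2.09e-06 and 1.18e-06, n = 4 each by limma). HES4, of the same class, averaged 10.69 with AZD1152 and 10.56 with SNS-314, against 11.18 at 0 h (adjusted p = 0.000435 and 2.12e-05). BHLHE40, a repressor that responds to many stimuli, changed by 0.73 with AZD1152 and 0.59 with SNS-314 (adjusted p = 7.93e-08 and 3.67e-06). LTBP3, which tethers latent TGF-beta to the matrix, changed by 0.49 with AZD1152 and 0.67 with SNS-314 (adjusted p = 0.00513 and 0.00022). CCN2, a secreted matrix protein and TGF-beta target, changed by 0.38 with AZD1152 and 0.41 with SNS-314 (adjusted p = 0.00269 and 0.00135). These comparisons share the 4 controls.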
